A study of Mus musculus with 6 samples.

Results

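The genes of fatty acid oxidation and the targets of PPAR alpha were compared between kidneys of mice that carry the soluble intracellular domain of megalin and kidneys of wild type littermates. The group held 39 listed genes. A gene was measured where the platform annotation paired at least 1 probe set with that single symbol, and it was read from its brightest probe set, the one with the highest mean over the 6 arrays. In this way 35 of the 39 genes were measured, of 18193 genes in all. Of the other 4, Acsl1, Ucp2 and Cyp4a12b had no such probe set and were not analysed here, and Cyp4a10 shared its probe set with Cyp4a31. The study set 3 mice heterozygous for the intracellular domain (ICD group) against 3 wild type littermates. All 6 were male and 10 weeks old, and RNA from each kidney sample was hybridised to 1 Affymetrix array. The labels used here do not name the promoter that drives the domain or the time of day at which kidneys were collected.

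Megalin, encoded by Lrp2, is the endocytic receptor of the proximal tubule, and its cleavage releases the tail that these mice express. The proximal tubule reabsorbs most filtered solutes and fuels this work largely by burning fatty acids. Long chains enter mitochondria through the carnitine shuttle and are shortened there by dehydrogenases, hydratases and thiolases. Very long chains are first shortened in peroxisomes, and CYP4 enzymes of the microsomes hydroxylate the far end of the chain. PPAR alpha is a nuclear receptor that is activated by fatty acids, pairs with RXR, works with the coactivator PGC-1 alpha (Ppargc1a) and raises transcription of many of these genes, above all in fasting.

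PPAR alpha and RXR bind pairs of AGGTCA motifs set 1 base apart, so the promoters of the genes were searched for these letters. RefSeq windows of 250 bases before to 50 bases after the gene start (build GRCm38.p6) were at hand for 30 of the 39 genes, with 32 windows. None was at hand for Crat, Acaa2, Decr1, Cyp4a10, Cyp4a14, Cyp4a12a, Cyp4a12b, Angptl4 or Vnn1, and sites outside the windows were not searched. The strict pair AGGTCANAGGTCA, searched on both strands, was found in 0 of these 32 windows and in 0.0396% of all 32851 windows. A looser pair, AGGNCANAGGNCA, was found in 1 of the 32 windows, that of Fabp1, against 0.381% of all windows. A single AGGTCA on either strand, which every strict pair also contains, lay in 7 of the 32 windows (21.9%) and in 16.3% of all windows. By gene it lay in 6 of 30, because the 2 windows of Acot3 overlap and hold the same match. The ERR motif TCAAGGTCA, another form that contains AGGTCA, was in 0 of the 32 windows against 0.423% of all, and the clock motif CACGTG was in 1, that of Plin2, against 7.15%. The stretches around the Fabp1 pair and around 3 of the single motifs are shown because they hold the letters that were searched for. Capitals mark the match, which lies on the given strand of the gene or, where it begins with TGACC, on the opposite strand. Positions count from the gene start.
Fabp1, within chr6:71199629-71199928 on the + strand, match from -67 to -55: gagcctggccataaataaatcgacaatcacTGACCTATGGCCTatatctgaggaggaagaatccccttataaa
Cpt1a, within chr19:3323051-3323350 on the + strand, match from -94 to -89: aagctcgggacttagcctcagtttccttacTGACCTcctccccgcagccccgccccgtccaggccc
Acadvl, within chr11:70015379-70015678 on the - strand, match from -87 to -82: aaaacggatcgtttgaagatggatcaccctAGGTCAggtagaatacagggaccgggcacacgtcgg
Plin2, within chr4:86670010-86670309 on the - strand, match from -218 to -213: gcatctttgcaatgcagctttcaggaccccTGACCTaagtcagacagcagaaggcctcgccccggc
A match describes letters and shows no binding.

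Values are log2 values, so a difference of 1 is a 2-fold change, and differences are ICD minus wild type. Across the series, array medians lay between 6.62 and 6.66 and pairwise correlations between 0.9949 and 0.9966. One array stood apart from its label. A bright Lrp2 probe set read 12.25, 12.37 and 12.26 on the ICD arrays and 13.01, 12.97 and 12.13 on the wild type arrays, so the array labelled wild type 3 lay with the ICD arrays and below all of them. The difference there was -0.41 with all arrays and -0.70 with that array left out. The other bright Lrp2 probe set differed by 0.0079 and a dimmer one by 0.12, with overlap at both. Whether these probe sets detect the introduced domain is not given, so they are a partial check of the labels. Several markers of the early proximal tubule were also low on the array labelled wild type 3. Of 9 such markers 8 were higher in ICD kidneys, with a median difference of 0.33 that fell to 0.011 with this array left out. Their scores, the mean over the markers of the log2 value minus each marker's mean over 6 arrays, were 0.19 to 0.32 in ICD mice and 0.36, 0.076 and -1.20 in wild type mice. On that array Slc5a12, a lactate transporter, read 4.12 against 9.27 to 10.47 elsewhere, Slc34a3, a phosphate transporter, 6.46 against 8.68 to 9.35, and Slc6a19, an amino acid transporter, 9.43 against 10.63 to 11.15. Slc5a2, the glucose transporter SGLT2, read 10.40 against 11.29 to 11.96, and Gatm, the first enzyme of creatine synthesis, 10.93 against 12.01 to 12.51. Slc34a1 was lowest there by less (13.92 against 14.14 to 14.22), and Cubn read 12.50 to 12.64 over all arrays. Slc22a6 and Lrp2, also among these markers, were not lowest there. Slc22a6 read 13.06 on that array and 13.06 to 13.17 elsewhere. Lrp2, at its brightest probe set, read 12.78 against 12.77 to 12.93. In bulk kidney fewer cells of a type and less RNA per cell cannot be told apart. Late proximal tubule markers scored -0.13 to 0.11 in ICD and -0.12 to 0.13 in wild type mice. The part of these markers in the differences below was not tested.

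Differences were tested with limma over all 45037 probe sets, with p-values adjusted by the method of Benjamini and Hochberg and a threshold of 0.05. No gene of the group passed: 0 of 35 were called, as were 0 of all 45037 probe sets (0%). At an unadjusted limma p under 0.05 there were 2 of the 35, Ppara and Ppargc1a, both higher in ICD kidneys, while 3.94% of all genes had such a p (1.74% higher and 2.2% lower in ICD kidneys). A gap between the groups, with no overlap, was seen for 1 of the 35 (Ppargc1a), against 9.1% of all genes (3.66% with the ICD group higher and 5.44% with it lower). A positive difference was measured for 21 of 35 genes, against 43.9% of all genes. The median difference was 0.023, and that of all genes was -0.012.

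**Figure D1:**
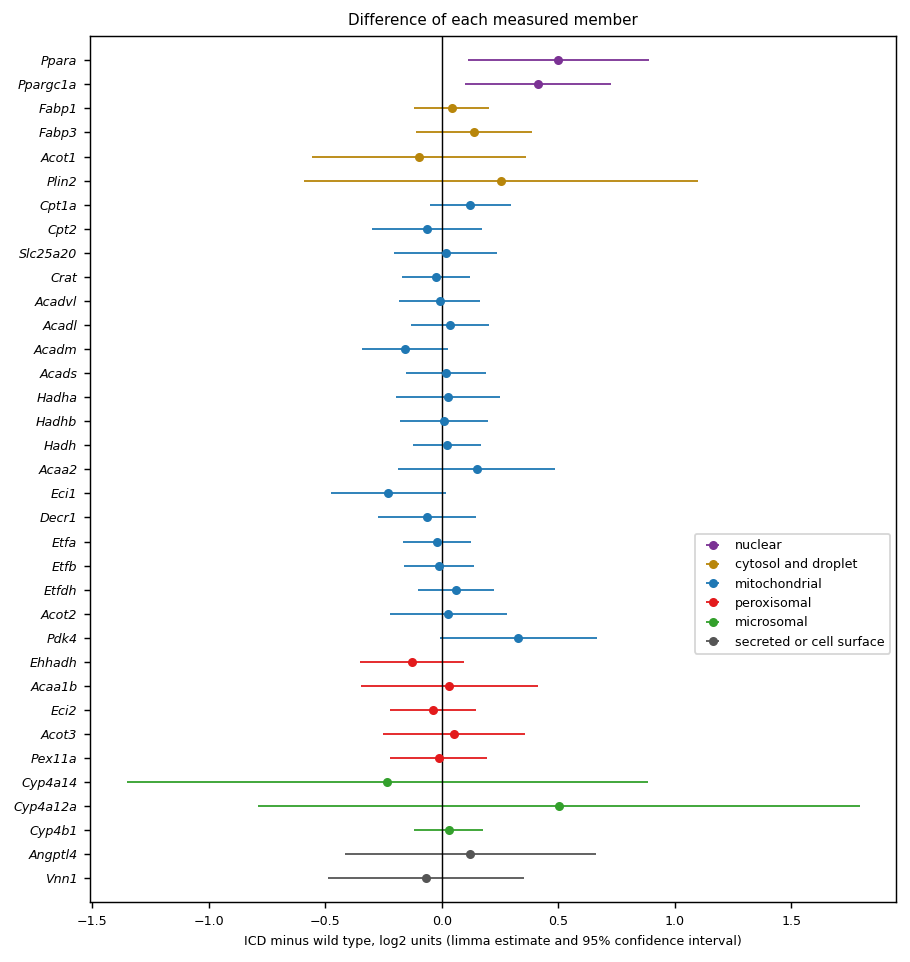
Difference between ICD and wild type kidneys for each of the 35 measured genes on a log2 axis; points are limma estimates, bars are 95% confidence intervals, n = 3 mice per group, and colour gives the compartment. The intervals of Ppara and Ppargc1a lie above 0 before adjustment, most mitochondrial and peroxisomal genes have intervals close around 0, and Cyp4a14 and Cyp4a12a have the widest.

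Among the regulators, the receptor Ppara had the larger difference. It read 10.63, 11.11 and 10.89 in the ICD mice and 10.68, 10.41 and 10.05 in the wild type mice. The groups overlapped, since wild type 1 lay above ICD 1. The means were 10.88 ± 0.239 (SD, n = 3) and 10.38 ± 0.316, a difference of 0.50 (95% interval 0.11 to 0.89, limma unadjusted p = 0.0175, adjusted p = 0.744). The other Ppara probe sets differed by 0.26 and 0.36, in the same direction. Without the array labelled wild type 3, the lowest, the difference was 0.34, and without wild type 1 it was 0.65.

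Ppargc1a, the coactivator that couples nuclear receptors to mitochondrial biogenesis, read 10.80, 11.08 and 10.82 in ICD and 10.78, 10.40 and 10.28 in wild type mice. All ICD values were above all wild type values, although ICD 1 and wild type 1 were nearly equal. The difference was 0.41 (interval 0.10 to 0.72, limma unadjusted p = 0.0162, adjusted p = 0.738). It was 0.31 with the array labelled wild type 3 left out. This holds for the brightest probe set. The other 4 probe sets differed by -0.16, -0.034, -0.012 and -0.010, and none of them had an unadjusted limma p below 0.233. The probe sets of Ppara therefore shared a direction, and those of Ppargc1a did not.

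**Figure D2:**
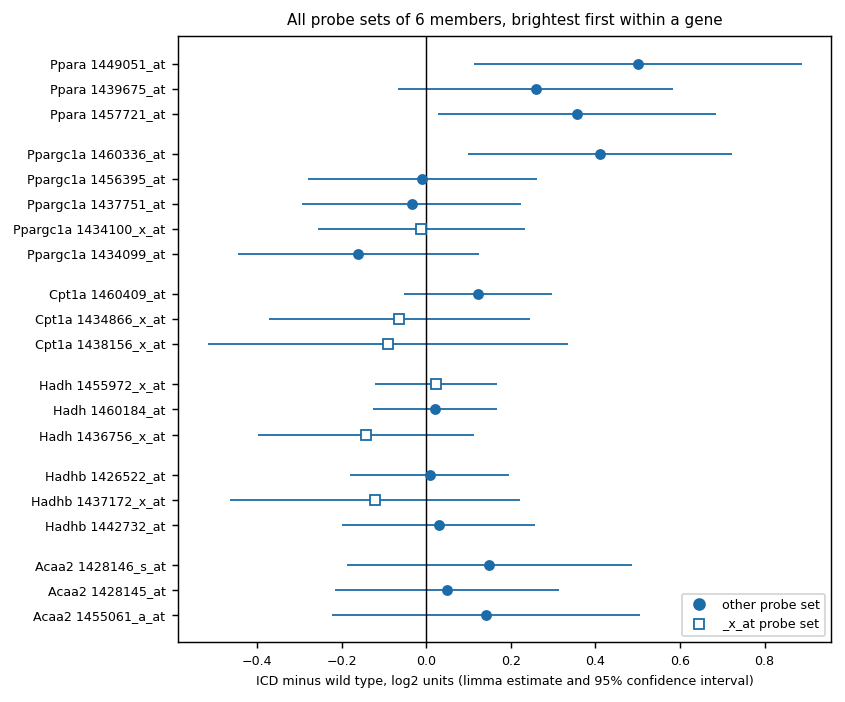
Difference between ICD and wild type kidneys at every probe set of 6 genes, as limma estimates with 95% confidence intervals on a log2 axis, n = 3 mice per group; open squares are probe sets whose ID ends in _x_at, which can cross-hybridise. All 3 Ppara probe sets lie above 0, whereas only the brightest of the 5 Ppargc1a probe sets does.

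Ppara is transcribed with a daily rhythm, and clock genes were read beside it. Dbp, a clock output factor of the PAR bZIP family chosen after its values were seen, read 10.76, 11.63 and 11.28 in ICD and 11.19, 10.51 and 10.07 in wild type mice. The 6 mice had the same order for Dbp as for Ppara, from ICD 2 at the top to the array labelled wild type 3 at the bottom. Arntl, the core clock activator, read 7.92, 7.57 and 7.32 in ICD and 8.0, 8.30 and 8.08 in wild type mice, without overlap (difference -0.53, limma unadjusted p = 0.00716, adjusted p = 0.714). Per3, a clock repressor, differed by 0.29 (unadjusted p = 0.0294, adjusted p = 0.811). Of the 16 clock genes measured, 10 were higher and 6 lower in ICD kidneys, with a median of 0.13. Their part in the Ppara difference was not tested.

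The other receptors of the family and their partners had no difference of this size upwards. Ppard, the related receptor PPAR delta, read 8.89, 8.50 and 9.03 in ICD and 8.69, 9.50 and 9.21 in wild type mice, a difference of -0.33 (adjusted p = 0.931). It was -0.14 without wild type 2 and -0.55 without wild type 1. Pparg differed by -0.047, Rxra, the shared partner, by -0.028, and Esrra, the estrogen-related receptor of mitochondrial genes, by -0.043. Of 15 receptors and coregulators measured beside Ppara and Ppargc1a, with Ppard, Pparg, Rxra and Esrra among them, 8 were higher and 7 lower. Their median was 0.011, and 0 passed the threshold.

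The carnitine shuttle was nearly level between the groups. Cpt1a, the gatekeeper that attaches carnitine to long-chain fatty acids, read 12.16, 12.23 and 12.04 in ICD and 12.07, 11.95 and 12.04 in wild type mice. ICD 3 lay within the wild type range, and the difference was 0.12 with a 95% interval from -0.052 to 0.30 (limma adjusted p = 0.929). Its dimmer probe sets, both of the cross-hybridising _x_at type, differed by -0.064 and -0.090. Cpt2, which reverses that step inside the mitochondrion, differed by -0.063, Slc25a20, the carrier between them, by 0.016, and Crat, the acetyltransferase for short chains, by -0.024.

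The acyl-CoA dehydrogenases carry out the first step of each round and are named for chain length. Acadm, for medium chains, read 14.08, 13.96 and 13.96 in ICD and 14.11, 14.08 and 14.29 in wild type mice. The groups overlapped only at ICD 1 and wild type 2, and the array labelled wild type 3 was highest. The difference was -0.16 (interval -0.34 to 0.026, unadjusted p = 0.0828, limma adjusted p = 0.889), and -0.094 without that array. Acadvl, Acadl and Acads, for very long, long and short chains, differed by -0.0098, 0.034 and 0.018. The lowest and highest ends of their intervals were -0.18 and 0.20.

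The later steps were as level. Hadha and Hadhb, the subunits of the trifunctional protein, differed by 0.027 and 0.0086, and Hadh, the short-chain hydroxyacyl dehydrogenase, by 0.023. Acaa2, the mitochondrial thiolase, read 11.52 in ICD 1 and 10.88 to 11.13 on the other 5 arrays. Its difference of 0.15 became -0.026 without ICD 1. Etfa, Etfb and Etfdh, which pass the electrons on to the respiratory chain, differed by -0.021, -0.012 and 0.060, and Etfa spanned only 0.086 over all 6 mice.

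The enzymes that prepare unsaturated chains were lower on average in ICD kidneys with all arrays, without passing the test. Eci1, the mitochondrial enoyl-CoA isomerase, read 11.80, 11.91 and 11.65 in ICD and 11.98, 11.85 and 12.21 in wild type mice. Wild type 2 lay inside the ICD range, and the difference was -0.23 (interval -0.48 to 0.017, unadjusted p = 0.0646, limma adjusted p = 0.868), and shrank to -0.13 with the array labelled wild type 3 left out. Decr1, the dienoyl-CoA reductase, differed by -0.063, and by 0.022 without that array. Eci2, the isomerase found mainly in peroxisomes, differed by -0.038, and by 0.026 without the array labelled wild type 3. The median of these enzymes was -0.063 with all arrays and 0.022 without it.

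Pdk4, the kinase that shuts off pyruvate oxidation in favour of fat and a classical PPAR alpha target, read 9.62, 9.17 and 9.38 in ICD and 9.27, 9.12 and 8.79 in wild type mice. ICD 2 lay below wild type 1, and the difference was 0.33 (interval -0.010 to 0.66, unadjusted p = 0.0556, limma adjusted p = 0.857). It shrank to 0.19 with the array labelled wild type 3 left out. Acot2, a mitochondrial thioesterase, differed by 0.028. Over the 19 mitochondrial genes, 11 were higher and 8 lower, with a median of 0.016.

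**Figure D3:**
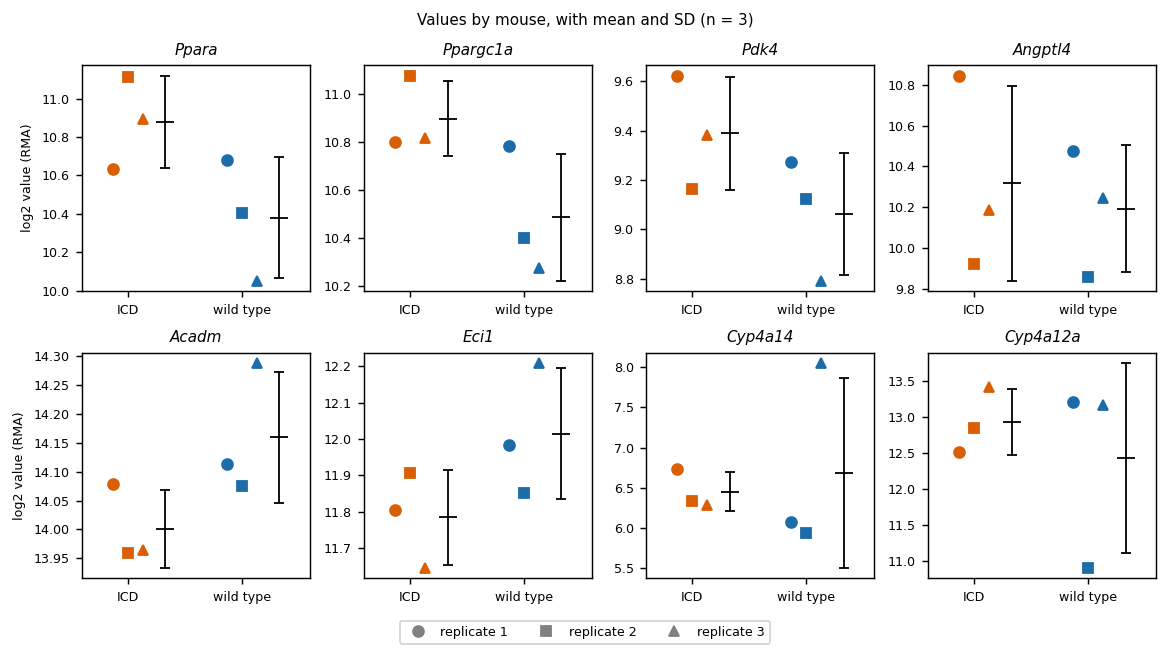
Log2 values of 8 genes in each mouse, with marker shapes for the replicate number and, beside the points, the mean and SD of 3 mice; the vertical axes differ between panels and do not start at 0. The array labelled wild type 3 is lowest for Ppara, Ppargc1a and Pdk4 and highest for Acadm, Eci1 and Cyp4a14, and wild type 2 stands far below the others for Cyp4a12a.

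Peroxisomal genes showed no common direction. Ehhadh, the bifunctional enzyme of peroxisomal oxidation and a strong PPAR alpha target, read 13.11, 13.07 and 12.93 in ICD and 13.07, 13.08 and 13.36 in wild type mice, a difference of -0.13 (interval -0.35 to 0.094, limma adjusted p = 0.948), and of -0.034 with the array labelled wild type 3 left out. Acaa1b, a peroxisomal thiolase, read 12.88, 12.55 and 12.33 in ICD and 12.55, 12.29 and 12.83 in wild type mice, so that the highest value of each group was almost the same. Its difference was 0.033. Acot3, a peroxisomal thioesterase, differed by 0.053 and Pex11a, which helps peroxisomes divide, by -0.013. Of the 5 genes 2 were higher and 3 lower, with a median of -0.013.

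Cyp4a14 and Cyp4a12a had the largest spread within groups of the 35 genes, whereas Cyp4b1 had one of the smallest. Cyp4a14, an omega-hydroxylase that PPAR alpha induces strongly, read 6.73, 6.33 and 6.29 in ICD and 6.07, 5.93 and 8.05 in wild type mice. The array labelled wild type 3 stood 1.77 above the median of the other 5, a 3.4-fold higher signal. The group difference was -0.23 (interval -1.35 to 0.88) and turned to 0.45 without it.

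Cyp4a12a, an omega-hydroxylase of male kidney that depends on androgen, read 12.52, 12.86 and 13.43 in ICD and 13.22, 10.90 and 13.17 in wild type mice. Wild type 2 differed by -2.27 from the median of the other 5 arrays, a 4.83-fold lower signal. The group difference was 0.50 (interval -0.79 to 1.79, limma adjusted p = 0.977), and -0.26 without that mouse. Cyp4a12b had no probe set of its own, and whether the Cyp4a12a probe set also reads Cyp4a12b was not tested. Among other androgen dependent genes Kap, a secreted protein of male proximal tubules, read 15.05 in wild type 2 and 14.99 to 15.11 elsewhere. Kap thus lay at the top of the series, whose highest value was 15.11, and a fall in its transcript may show little there. Odc1, the polyamine enzyme, read 13.67 in wild type 2 against 13.50 to 14.19. Cyp2j13, an epoxygenase, was lowest in wild type 2 by a smaller step, at 11.75 against 11.87 to 12.47. Cyp4b1, another microsomal hydroxylase, read 14.54 to 14.64 in all 6 mice and differed by 0.030. The probe set shared by Cyp4a10 and Cyp4a31, which can be credited to neither alone, read 12.89, 12.44 and 12.43 in ICD and 12.61, 12.33 and 13.32 in wild type mice, again highest on the array labelled wild type 3. Of the 3 measured microsomal genes 2 were higher and 1 lower, with a median of 0.030.

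Targets outside these organelles followed no group pattern. Angptl4, the secreted inhibitor of lipoprotein lipase that fasting induces, read 10.84, 9.92 and 10.19 in ICD and 10.48, 9.86 and 10.24 in wild type mice, with the mice of both groups interleaved (difference 0.12, or -0.14 without ICD 1). Vnn1, the pantetheinase of the cell surface, read 11.92, 11.54 and 11.28 in ICD and 11.53, 11.44 and 11.98 in wild type mice, a difference of -0.067, or 0.098 with the array labelled wild type 3 left out. Plin2, the coat protein of lipid droplets, read 10.15, 10.76 and 10.75 in ICD and 9.81, 11.27 and 9.81 in wild type mice. Wild type 2 held the highest Plin2 value and the other wild type mice the lowest, and the difference was 0.25 with all mice, 0.74 without wild type 2 and 0.011 without wild type 1. It was 0.013 when the array labelled wild type 3 was dropped.

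The fatty acid binding proteins and the cytosolic thioesterase completed the set. Fabp3 read 10.35, 10.29 and 10.08 in ICD and 10.04, 10.30 and 9.97 in wild type mice, a difference of 0.14 that was 0.072 without the array labelled wild type 3. Fabp1, the liver type protein whose promoter holds the looser motif pair shown above, was dim, at 4.68 to 4.84 on all arrays, and differed by 0.043. Its even dimmer second probe set read 3.62 to 3.65 in ICD and 3.78 to 3.85 in wild type mice, a difference of -0.18 (unadjusted p = 0.0178, limma adjusted p = 0.751). Acot1, the cytosolic thioesterase that PPAR alpha induces, read 9.81, 9.37 and 9.22 in ICD and 9.37, 9.34 and 9.99 in wild type mice.

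**Figure D4:**
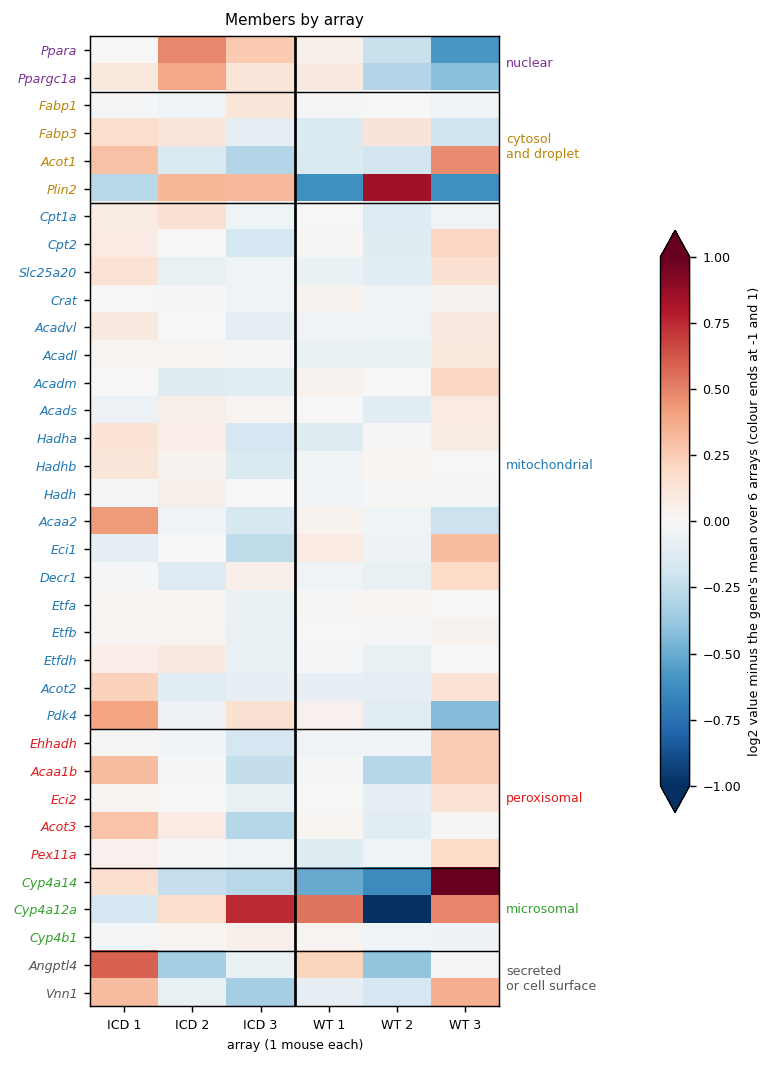
Log2 value of each of the 35 genes on each of the 6 arrays after subtracting that gene's mean over the arrays, with red above and blue below the mean, ICD arrays on the left and wild type arrays on the right. ICD 1 and the array labelled wild type 3 hold the highest value of 24 of the 35 genes, although Ppara is lowest on the latter.

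The highest and lowest values fell on single arrays of either label. The array labelled wild type 3 held the highest value of 15 of the 35 genes (42.9%, against 20.6% of all genes), and 9 of these were mitochondrial and 3 peroxisomal. ICD 1 held the highest value of 9 (25.7%, against 11.8% of all genes) and the lowest of 0. ICD 3 held the lowest of 11 (31.4%, against 17.6% of all genes), and wild type 2 the lowest of 10 (28.6%, against 13.9%). The 2 highest values of a gene came from ICD 1 and the array labelled wild type 3, 1 array of each label, for 14 of the 35 genes (40%, against 6.67% of all genes). These were 4 of the 5 peroxisomal genes (Ehhadh, Acaa1b, Eci2 and Pex11a), 7 mitochondrial genes (Cpt2, Slc25a20, Acadvl, Acadl, Hadha, Etfb and Acot2), and Acot1, Cyp4a14 and Vnn1. This pattern was noticed after the values were seen and has no test. Pdk4 and Angptl4, also PPAR alpha targets, were highest on ICD 1. On the array labelled wild type 3 Pdk4 was lowest, whereas Angptl4 lay below ICD 1 and wild type 1 and above the other arrays.

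The compartments can be set side by side as array scores, the mean over a compartment's genes of the log2 value minus the gene's mean over 6 arrays. Mitochondrial scores were 0.088, -0.00032 and -0.069 on the ICD arrays and -0.012, -0.053 and 0.048 on the wild type arrays. Peroxisomal scores were 0.13, 0.0013 and -0.16 against -0.032, -0.11 and 0.17, with the same arrays at the top and a wider range. Microsomal scores were -0.0087, -0.014 and 0.17 against 0.022, -0.81 and 0.64, and rest on 3 genes. In each of these compartments the ranges of the groups overlapped. The scores of the 2 nuclear regulators had another order of arrays, at 0.056, 0.43 and 0.19 in ICD and 0.071, -0.26 and -0.50 in wild type mice. There too the ranges overlapped, since wild type 1 lay above ICD 1. The other Ppargc1a probe sets did not share the direction of the one used in this score.

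The precision differed by gene. The 95% interval lay within 0.5 of 0 for 27 of the 35 genes (77.1%, against 95.3% of all genes), and within 1 for 32. The spread between mice of a group exceeded the 90th percentile of all genes for 12 of the 35, among them Cyp4a12a, Cyp4a14, Plin2, Angptl4, Acot1, Vnn1, Ppara and Pdk4. At the other end Crat, Hadh, Etfa and Cyp4b1 had an SD within groups of 0.032 to 0.038. Of 18 genes with more than 1 probe set, 8 had the same sign at all of them and 10 did not. Of the 8 probe sets of the group whose ID ends in _x_at, 5 were highest on wild type 2, against 23% of all such probe sets and 16.8% of all probe sets.

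Genes of the pathway beyond the 39 were listed by role, and 106 of 119 were measured. None passed the threshold: 0 were called by limma, 48 were higher and 58 lower, with a median of -0.0082. An unadjusted p under 0.05 was found for 3 of the 106 (2.83%, against 3.94% of all genes), and the groups did not overlap for 8 (7.55%, against 9.1% of all genes). Of 33 genes listed as peroxisomal, some of which, such as Abcd4, serve other compartments, 11 were higher and 22 lower. Abcd4, a transporter of the peroxisomal ABC family that serves lysosomal vitamin B12 export, read 8.19, 8.32 and 8.08 in ICD and 7.88, 7.68 and 7.73 in wild type mice, without overlap (difference 0.44, unadjusted p = 0.000962, adjusted p = 0.551). Amacr, the racemase for branched chains, read 13.19, 12.91 and 13.04 in ICD and 13.35, 13.22 and 13.39 in wild type mice, also without overlap (difference -0.28, adjusted p = 0.725). Hsd17b4, the bifunctional enzyme for branched chains, differed by -0.013.

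In the other lists of the pathway the largest difference belonged to Mgll, the monoglyceride lipase, at -0.44 (unadjusted p = 0.0418, limma adjusted p = 0.84), although it was 0.027 at its brightest probe set outside the _s_at, _x_at and _a_at types. Of 25 genes of uptake, activation and lipolysis 15 were higher and 10 lower, and Cd36, the fatty acid translocase, differed by 0.025. Of 22 further mitochondrial and ketone genes 10 were higher and 12 lower, and of 11 further CYP4 and microsomal genes 4 were higher and 7 lower. The other 6 genes without overlap were Dbi, the acyl-CoA binding protein (0.061), Pex19, a peroxisome import factor (0.12), Acsl5, an acyl-CoA synthetase (-0.18), Mlycd, which degrades malonyl-CoA (-0.13), Acot8, a peroxisomal thioesterase (-0.12), and Pdk3, a relative of Pdk4 (-0.081), each at a limma adjusted p of 0.895 or more.

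Markers of other cells that use or store fat were read in the same way. Fat tissue markers were higher in ICD kidneys for 5 of 6, with scores of -0.20 to 0.29 in ICD and -0.54 to 0.14 in wild type mice. Hepatocyte markers were higher for 6 of 6, with scores of 0.040 to 0.23 in ICD and -0.18 to -0.043 in wild type mice, and Alb, which defines the type, read 7.07 to 7.49. Endothelial markers were higher for 8 of 8, with scores of -0.051, 0.053 and 0.16 in ICD and 0.24, -0.095 and -0.31 in wild type mice, so that wild type 1 lay above every ICD array. Their median difference of 0.10 turned to -0.016 with the array labelled wild type 3 left out, and 5 of the 8 changed sign without some array. Podocyte markers, 5 measured of 7 listed, were higher for 5 of 5, with scores of 0.16 to 0.23 in ICD and -0.29 to -0.032 in wild type mice. The groups did not overlap for 5 of these 5 markers, against 9.1% of all genes, and 0 passed the threshold. Their median difference of 0.40 stayed between 0.31 and 0.52 when single arrays were left out. Markers of the thick ascending limb were lower for 5 of 6 (scores -0.12 to -0.015 in ICD and -0.010 to 0.11 in wild type mice). Those of distal tubule and collecting duct were lower for 7 of 10 (-0.18 to 0.034 and 0.050 to 0.096), and those of the adrenal gland for 4 of 5 (-0.081 to 0.014 and 0.032 to 0.042). Immune markers were higher for 4 of 7 (-0.082 to 0.13 and -0.052 to 0.060) and blood markers for 1 of 2 (-0.22 to -0.0045 and 0.0045 to 0.18). Of 14 genes of fasting and glucocorticoid response 9 were higher and 5 lower, with a median of 0.036. The groups did not overlap for 2 of the 14 (14.3%, against 9.1% of all genes), both higher in ICD kidneys. These were Irs2 (0.48, limma unadjusted p = 0.014, adjusted p = 0.725) and Fbp1 (0.041). Of 8 androgen dependent genes 2 were higher. The part of any of these in the values of the fatty acid genes was not tested.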

How the data were processed

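The deposited table holds log2 values that the authors made with RMA, per the submitters' processing notes. RMA corrects background, forces the arrays to 1 distribution and summarises probes per probe set, so a shift shared by most transcripts would be removed. Its version is not given in the sources used here. After 64 control rows were left out, 45037 probe sets remained, of which 34945 had 1 gene symbol, 932 several and 9160 none in the platform annotation. Entrez identifiers were checked against RefSeq (GRCm38.p6), and 0 symbols changed.

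Groups and replicate numbers came from the titles. The 2-sided comparison of genotypes used lmFit and eBayes of limma 3.58.1 under R 4.3.3 with no covariate, p-values adjusted by Benjamini-Hochberg over all probe sets, a threshold of 0.05 and 95% confidence intervals. An exact permutation test of 3 against 3 cannot give a 2-sided p below 0.1. The number of arrays limits the precision. The script was tested on simulated data. Same-numbered mice did not deviate together (correlations -0.0057, 0.0077 and -0.047), so the numbers were not taken to pair them. Each of the listed genes was accounted for. Values by mouse were given for genes with an unadjusted p under 0.05 or no overlap, the largest 2 per compartment and a named set. The genes, lists and compartments were chosen with earlier results of these data known. Alternatives were other normalizations, priors, weights, filters and probe set rules, a replicate block, and leaving out each array.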

Additional observations from a re-analysis of the deposited data

How the results depend on the processing

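Under every alternative tried 0 of the 35 genes and 0 further pathway genes passed the threshold; the lowest adjusted p of one of the 35 was 0.413, for Ppargc1a without wild type 1. With the replicate number as a block the count was 0 as well. Over all probe sets 1 passed with a trended and robust prior, and 0 to 1 without single arrays. Leaving out single arrays moved the median of the 35 between -0.037 and 0.072, the mitochondrial median between -0.034 and 0.036, the peroxisomal between -0.095 and 0.074 and the microsomal between -0.26 and 0.45. When a gene's probe sets were averaged the sign turned for Fabp1 (-0.070), Cpt1a (-0.011), Hadhb (-0.028), Hadh (-0.033), Acot2 (-0.069), Pex11a (0.016), Hsd17b4 (0.0081) and Esrra (0.098), the median of the 35 was -0.0098, the mitochondrial median -0.012 and the peroxisomal median 0.016. It also turned for Hadhb after quantile normalization (-0.00062), and for Angptl4 (-0.041), Cd36 (-0.0012) and Mgll (0.027) at probe sets without _s_at, _x_at or _a_at. The cause was not tested.

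Without some single array the sign turned for 21 of the 35 genes (60%, against 49.6% of all genes). The ranges were -0.11 to 0.17 for Acaa1b, -0.026 to 0.27 for Acaa2, -0.031 to 0.064 for Acads, -0.056 to 0.036 for Acadvl, -0.27 to 0.11 for Acot1, -0.081 to 0.10 for Acot2, -0.074 to 0.21 for Acot3, -0.14 to 0.32 for Angptl4, -0.14 to 0.022 for Cpt2, -0.26 to 0.90 for Cyp4a12a and -0.61 to 0.45 for Cyp4a14. They were -0.11 to 0.022 for Decr1, -0.095 to 0.026 for Eci2, -0.035 to 0.0081 for Etfa, -0.031 to 0.022 for Etfb, -0.0075 to 0.075 for Fabp1, -0.037 to 0.12 for Hadha, -0.050 to 0.084 for Hadhb, -0.079 to 0.078 for Pex11a, -0.053 to 0.096 for Slc25a20 and -0.24 to 0.098 for Vnn1. Among further genes they were -0.044 to 0.082 for Cd36, -0.046 to 0.050 for Hsd17b4, -0.12 to 0.029 for Pparg and -0.086 to 0.016 for Rxra. Fabp1 and Cyp4a14 lay below the median level of all probe sets, where RMA compresses differences.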
